A study of Arabidopsis thaliana with 9 samples.

Results

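The 34 genes described here encode Polycomb proteins, H3K4 methyltransferases, subunits of the PAF1 complex, H3K27 demethylases and components of the autonomous flowering pathway in Arabidopsis thaliana. They were listed by gene identifier and not by their values, though earlier results of these data were known. They make up 34 of the 33302 features for which an expression value was deposited. The list holds 9 genes of Polycomb repressive complex 2 (PRC2) and its reader LHP1, 7 H3K4 methyltransferases, 6 PAF1 complex subunits, 3 demethylases and 9 autonomous pathway genes. Of the 34, 32 had a mean of at least 1 FPKM (sequenced fragments divided by gene length and by library size) and entered the test. The other two, JMJ32 and LDL2, stayed below that level.

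Leaf mRNA of 21-day-old soil-grown plants in the Columbia-0 background was sequenced in 4 libraries. The 2 WT libraries came from plants with an inserted, unmutated copy of the histone H3 gene AT4G40040 (HTR5), and the 2 K36M libraries from plants whose inserted copy carries a missense change of lysine 36 to methionine. Both groups therefore carry a transgene, no library of plants without one was analysed here, and the labels of the RNA libraries give neither the promoter, the number of independent lines nor whether the insertion was heterozygous. The series also lists 5 libraries of H3K36me3 chromatin immunoprecipitation, which were not analysed here. The comparison asks which transcripts differ with the mutated histone, in a study of what accompanies the loss of H3K36 methylation.

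PRC2 places methyl groups on lysine 27 of histone H3, and LHP1 binds that mark, so that target genes stay off through cell divisions. H3K4 methyltransferases and the PAF1 complex, which travels with RNA polymerase II and recruits histone modifying enzymes, act on transcribed genes, while the demethylases ELF6, REF6 and JMJ32 remove H3K27 methylation. In Arabidopsis these activities meet at FLC, a repressor of flowering, whose own repression in plants that have not been through winter depends on the autonomous pathway, a set of RNA-binding and 3' end processing proteins working with a histone demethylase. H3K36 methylation marks transcribed genes, including FLC, and is held to oppose H3K27 methylation.

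None of the 32 tested genes differed between K36M and WT by limma on log2(FPKM + 1) with Benjamini-Hochberg adjustment over all 17738 tested features, and each had an adjusted p of 1.00. Over all features 0.0395% were called, with 0.0282% higher and 0.0113% lower in K36M. All 7 called features were listed at 0 in both libraries of a group, and 730 features had an unadjusted p under 0.05, so the fit separated little apart from such on-and-off features. Among the 32 genes the lowest unadjusted p was 0.11. Their differences ran from -0.79 to 0.52 on the log2 scale with standard errors of 0.37 to 0.63. The 95% confidence intervals together reached from -2.02 (ATXR7) to 1.83 (VRN2), so true changes of about those sizes remain compatible with the values of those genes. The labels call the libraries duplicate biological replicates without saying whether they came from separate plants, so the p-values measure the spread between these libraries.

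As a list, the genes read slightly lower in K36M in the main fit, but unevenly and not in every setting. The difference was below 0 for 24 of 32 genes, with a median of -0.17, against 54.4% and a median of -0.05 over all tested features. Under median scaling 19 were below 0, with a median of -0.06 against 0.06 over all features. With the trend by gene span, described below, removed, 13 were below 0. The list median was then 0.07, against 0.03 over all features. In K36M both values were lower than either WT value in 9 of the 32 tested genes, and in JMJ32 as well, against 19.3% of all tested features. Both were higher in 2, VRN5 and VEL1, against 12.1%. Under median scaling these counts were 4 and 4, against 14.5% and 16.7%, and the choice of libraries moved them further. In 12 of the 34 genes both K36M values lay between the 2 WT values, against 31.2% of tested features, a share near the background. In bulk leaf RNA, fewer cells of a type and less RNA per cell cannot be told apart.

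**Figure D1:**
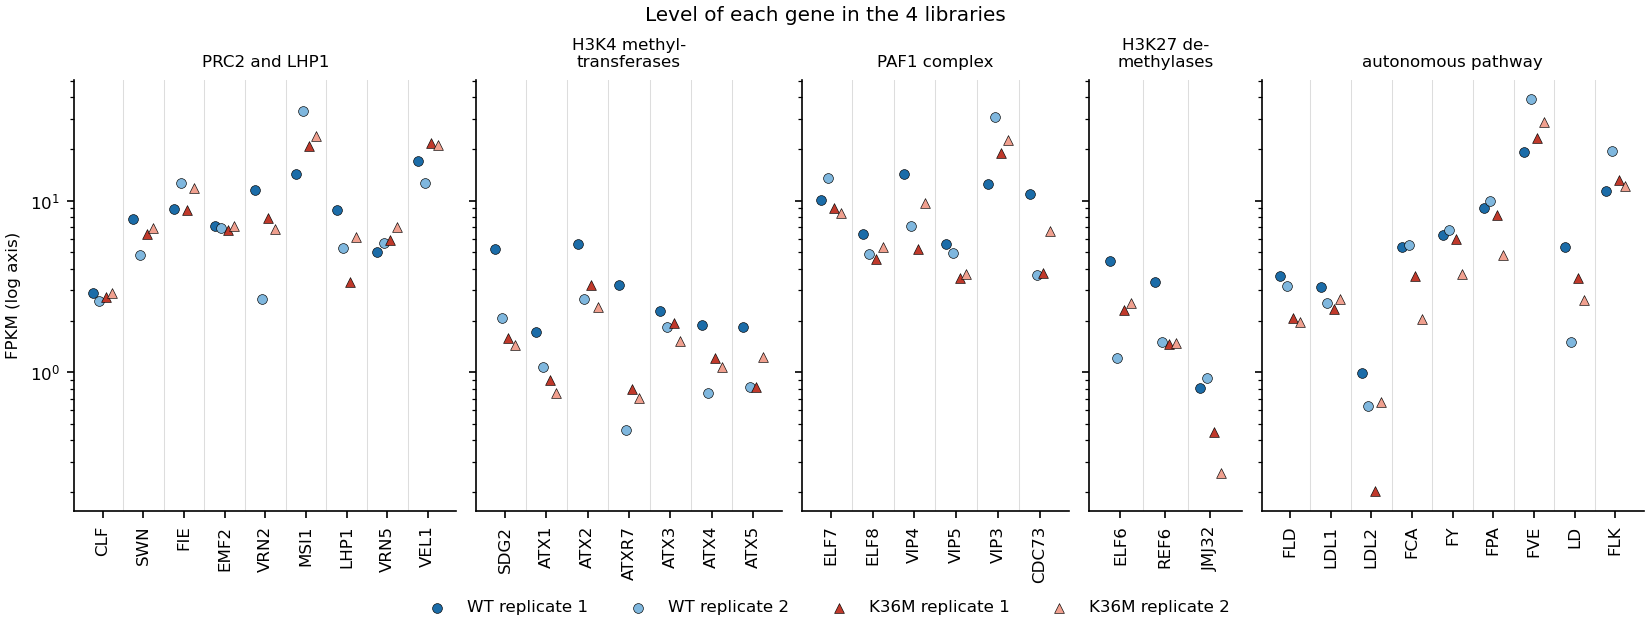
FPKM of each of the 34 genes in the 2 WT (circles) and 2 K36M (triangles) libraries, on a log axis, grouped by complex or pathway. CLF and EMF2 sit at nearly the same level in all 4 libraries, all 7 H3K4 methyltransferases are highest in WT replicate 1, and FLD and VIP5 have both K36M values below both WT values.

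WT replicate 1 stood apart from the other libraries, and this touches most of the values that follow. Its correlation with the others across tested features was 0.821 to 0.834, while the other libraries correlated at 0.937 to 0.950 with each other. One short feature, AT2G01021, accounted for 1.39% of all FPKM in WT replicate 1 and for 34.6% in WT replicate 2. Leaving it out, library sums of FPKM differed from 756076 to 1406621. Sequencing depth is unknown. HTR5 itself, whose FPKM joins the native gene and any matching reads of the insertion, read 322 and 711 FPKM in WT and 391 and 582 in K36M, so its values neither separate the groups nor check the mutation. Mesophyll markers were high throughout, with 7 genes summing to 42990 and 98640 FPKM in WT and 51190 and 58120 in K36M. Markers of flowers and of dividing cells read higher in K36M, although none was called: 8 flower genes summed to 2.37 and 2.99 FPKM in WT against 14.6 and 25.5 in K36M, with AP3 listed at 0 in both WT libraries. In 6 of the 8 both K36M values lay above both WT values, against 12.1% of all tested features. The 14 cell division genes summed to 51.8 and 103 against 128 and 147, and 8 of them lay above both WT values. WT replicate 1 was the lowest library for 11 of the 14. Shoot meristem markers (10 genes) summed to 16.2 and 34.2 FPKM in WT and to 39.5 and 30.4 in K36M. Of these, 6 lay above both WT values and 8 were lowest in WT replicate 1. STM was listed at 0 there, and read 9.73 FPKM in WT replicate 2 and 10.6 and 7.89 in K36M. Between the replicate 1 libraries and between the replicate 2 libraries, the median difference of tested division genes was 1.13 and 0.37. It was 1.65 and 0.27 for tested meristem genes and 1.60 and 2.01 for tested flower genes. The tested flower genes (AP1, AP3, PI, SEP1 and SEP3) averaged 0 to 0.68 FPKM in WT and passed the filter of 1 FPKM only through K36M. So did KNAT2, KNAT6, CUC3 and the division gene CYCB1;1. A higher reading in K36M was thus partly built into these medians. Epidermal and guard cell markers (10 genes, 272 and 801 against 703 and 570) and vascular markers (7 genes, 351 and 442 against 332 and 325) had no gene above both WT values. Both K36M values were below both WT values in 3 vascular markers (SUC2, APL and ATHB8) and 2 mesophyll markers (RCA and CA1). Of all tested features 19.3% were below in this way. No epidermal or guard cell marker was. The part of these tissues in the differences below was not tested.

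The catalytic core of PRC2 did not separate the genotypes. CLF (AT2G23380), the main H3K27 methyltransferase of leaves, read 2.90 and 2.59 FPKM in WT and 2.75 and 2.89 in K36M. The K36M values fell inside the narrow WT range, and the difference was 0.03 ± 0.39 (SE) with a 95% interval of -0.92 to 0.98. SWN (AT4G02020), the partly redundant second methyltransferase, read 7.84 and 4.83 FPKM in WT and 6.41 and 6.97 in K36M, again between the WT values, with a difference of 0.10 ± 0.41 and an interval of -0.89 to 1.09. The intervals leave room for a change of about 2-fold in either direction for each enzyme.

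The non-catalytic subunits did not separate the genotypes either. FIE (AT3G20740), the single-copy WD40 subunit, ranged from 8.85 to 12.6 FPKM, with the lower value of each group in replicate 1 and a difference of -0.05 ± 0.41. EMF2 (AT5G51230), the zinc finger subunit that represses flowering in seedlings, was the steadiest gene of the list at 7.15 and 6.92 FPKM in WT and 6.76 and 7.09 in K36M. VRN2 (AT4G16845), its relative needed for the memory of winter, spread widely in WT, at 11.5 and 2.66 FPKM, and the K36M values of 7.91 and 6.84 lay between, with a difference of 0.31 ± 0.63. MSI1 (AT5G58230), a histone-binding subunit shared with chromatin assembly, was spread the opposite way, at 14.4 and 33.3 FPKM in WT and 20.8 and 23.9 in K36M. For both VRN2 and MSI1 the gap between the WT libraries was greater than the difference between genotypes.

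VRN5 (AT3G24440) and VEL1 (AT4G30200), PHD finger proteins that join PRC2 and aid its spreading at FLC, were the only genes of the list with both K36M values above both WT values. VEL1 read 16.9 and 12.6 FPKM in WT and 21.8 and 21.0 in K36M, a difference of 0.52 ± 0.40 with an interval of -0.46 to 1.49 and an unadjusted p of 0.24. VRN5 read 4.99 and 5.66 FPKM in WT and 5.91 and 7.04 in K36M, a difference of 0.24 ± 0.37. The groups did not overlap, yet neither difference passed the test.

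LHP1 (AT5G17690), the reader of H3K27 methylation, read 8.83 and 5.32 FPKM in WT and 3.35 and 6.17 in K36M. Only K36M replicate 1 lay outside the WT range, the groups overlapped, and the difference was -0.50 ± 0.46, or -0.14 without that library. Across the 9 Polycomb genes the median difference was 0.03, with 3 genes below 0, and it was also above 0 under median and quantile scaling. Their summed levels were 83.4 and 86.5 FPKM in WT and 84.5 and 93.8 in K36M.

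Among the demethylases that remove H3K27 methylation, ELF6 (AT5G04240) read 4.45 and 1.21 FPKM in WT and 2.30 and 2.53 in K36M, with a difference of -0.03 ± 0.54. REF6 (AT3G48430), its close relative, read 3.34 and 1.49 FPKM in WT and 1.46 and 1.48 in K36M, a difference of -0.41 ± 0.47. Both were high in WT replicate 1 alone, and without that library the difference of REF6 was -0.01 and that of ELF6 was 0.62. JMJ32 (AT3G45880), which holds back flowering at warm temperatures by acting on FLC, was the lowest of the 3 at 0.803 and 0.924 FPKM in WT and 0.448 and 0.257 in K36M. Its groups did not overlap, and in a fit with no filter on low values its difference was -0.47 ± 0.16 with an unadjusted p of 0.039 and an adjusted p of 0.98 over 25789 features by limma. At levels under 1 FPKM the log2(FPKM + 1) scale understates a fold change.

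The 7 H3K4 methyltransferases were low and read lower in K36M, but this rested on 1 library. SDG2 (AT4G15180), the main enzyme for H3K4 trimethylation, read 5.22 and 2.07 FPKM in WT and 1.59 and 1.45 in K36M. Both K36M values were the lower ones, and the difference of -0.79 ± 0.49 was the greatest of the list, with an interval of -1.999 to 0.41 and an unadjusted p of 0.16. ATX1 (AT2G31650), a trithorax family enzyme that activates FLC, read 1.71 and 1.08 FPKM in WT and 0.900 and 0.759 in K36M, with groups apart and a difference of -0.38 ± 0.45. ATX2 (AT1G05830), its closest relative, read 5.603 and 2.67 FPKM in WT and 3.21 and 2.41 in K36M, with overlapping groups and a difference of -0.38 ± 0.46.

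ATXR7 (AT5G42400), a further activator of FLC, showed the dependence on WT replicate 1 most plainly. It read 3.23 FPKM there and 0.462 in WT replicate 2, and the K36M values of 0.802 and 0.702 lay between them. The difference was -0.51 ± 0.62 with both WT libraries and 0.26 without WT replicate 1. ATX3 (AT3G61740), ATX4 (AT4G27910) and ATX5 (AT5G53430), the related group that shares H3K4 di- and trimethylation, ran from 0.758 to 2.26 FPKM with overlapping groups and differences of -0.16, -0.07 and -0.17. All 7 differences were below 0 in the main fit, with a median of -0.38. ATX4 was at 0.04 under median scaling. ATX2, ATXR7, ATX4 and ATX5 were above 0 without WT replicate 1. ATX1, ATX2, ATX3, ATX4 and ATX5 were above 0 with the trend by gene span, described below, removed. All 7 genes were highest in WT replicate 1, which was the highest library for 22 of the 34 listed genes and for 33.97% of tested features. Without that library the median of the 7 was 0.05. Summed levels were 21.7 and 9.69 FPKM in WT and 10.5 and 9.13 in K36M, so WT replicate 2 lay between the K36M libraries.

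PAF1 complex subunits were expressed at higher levels, and 5 of the 6 had a difference below 0, also under median and quantile scaling. VIP5 (AT1G61040), a homologue of the yeast subunit Rtf1, read 5.59 and 4.92 FPKM in WT and 3.53 and 3.72 in K36M. Both groups were tight and apart, and the difference was -0.43 ± 0.38 with an unadjusted p of 0.29. ELF7 (AT1G79730), the PAF1 homologue itself, read 10.14 and 13.6 FPKM in WT and 9.04 and 8.47 in K36M, apart as well, with a difference of -0.39 ± 0.39.

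VIP4 (AT5G61150), the Leo1 homologue, read 14.4 and 7.12 FPKM in WT and 5.20 and 9.65 in K36M, and CDC73 (AT3G22590) read 10.9 and 3.71 in WT and 3.78 and 6.66 in K36M. In both genes WT replicate 1 was the high library and the groups overlapped, and the differences were -0.46 ± 0.50 and -0.31 ± 0.56. Without WT replicate 1 they were 0.00 and 0.36. VIP3 (AT4G29830), a WD40 subunit also known from the RNA-degrading SKI complex, went the other way, at 12.4 and 30.8 FPKM in WT and 18.9 and 22.6 in K36M, with a difference of 0.07 ± 0.53. ELF8 (AT2G06210), the Ctr9 homologue, ranged from 4.57 to 6.35 FPKM with overlapping groups and a difference of -0.14 ± 0.38. The subunits of this complex thus did not share a profile over the 4 libraries. Their median difference was -0.35, and their sums were 59.8 and 65.0 FPKM in WT and 45.0 and 56.5 in K36M.

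In the autonomous pathway, FLD (AT3G10390), the histone demethylase of the pathway and a relative of human LSD1, had the most even separation. It read 3.62 and 3.16 FPKM in WT and 2.06 and 1.96 in K36M, a difference of -0.54 ± 0.39 with an interval of -1.50 to 0.42 and an unadjusted p of 0.22. Each group was tight, with SDs of 0.321 and 0.0744 FPKM, and leaving out any 1 library left the difference between -0.62 and -0.47. Its relatives did not share this separation: LDL1 (AT1G62830) read 3.15 and 2.53 FPKM in WT and 2.33 and 2.69 in K36M, and LDL2 (AT3G13682) stayed under 1 FPKM in all 4 libraries, between 0.202 and 0.984.

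The RNA-binding and 3' end processing proteins FCA (AT4G16280), FY (AT5G13480) and FPA (AT2G43410) had both K36M values below both WT values, mainly through K36M replicate 2. FCA, which promotes early polyadenylation of antisense transcripts at FLC, read 5.35 and 5.50 FPKM in WT and 3.66 and 2.05 in K36M, a difference of -0.77 ± 0.41 with an interval of -1.78 to 0.24 and the lowest unadjusted p of the list, 0.11. FY, the polyadenylation factor that binds FCA, read 6.28 and 6.72 FPKM in WT and 6.01 and 3.73 in K36M, and FPA, a second RNA-binding protein of the same process, read 9.09 and 9.91 in WT and 8.29 and 4.82 in K36M. K36M replicate 1 was close to WT in FY and FPA, and without K36M replicate 2 the differences were -0.47 for FCA, -0.10 for FY and -0.17 for FPA, against -0.77, -0.38 and -0.51 with all libraries. FCA and FPA control the end sites of their own transcripts, and a single FPKM per gene does not separate such isoforms.

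FVE (AT2G19520), a relative of MSI1 that works in histone deacetylase complexes, was the most abundant gene of the list at 19.3 and 39.0 FPKM in WT and 23.2 and 28.8 in K36M, with a difference of -0.09 ± 0.49 that was above 0 under median scaling, at 0.02, and under quantile scaling, at 0.04. LD (AT4G02560), a homeodomain protein, read 5.38 and 1.49 FPKM in WT and 3.54 and 2.62 in K36M, a difference of 0.02 ± 0.56. FLK (AT3G04610), a KH domain RNA-binding protein, ranged from 11.4 to 19.6 FPKM with overlapping groups and a difference of -0.22 ± 0.43. For these 3 genes the WT libraries differed more from each other than the genotypes did. The median over the 8 tested autonomous pathway genes was -0.30. In 4 of the 9 genes (FLD, FCA, FY and FPA) both K36M values were below both WT values, against 19.3% of all tested features. Only FLD of these stayed apart once the trend with gene span, described below, was removed.

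**Figure D2:**
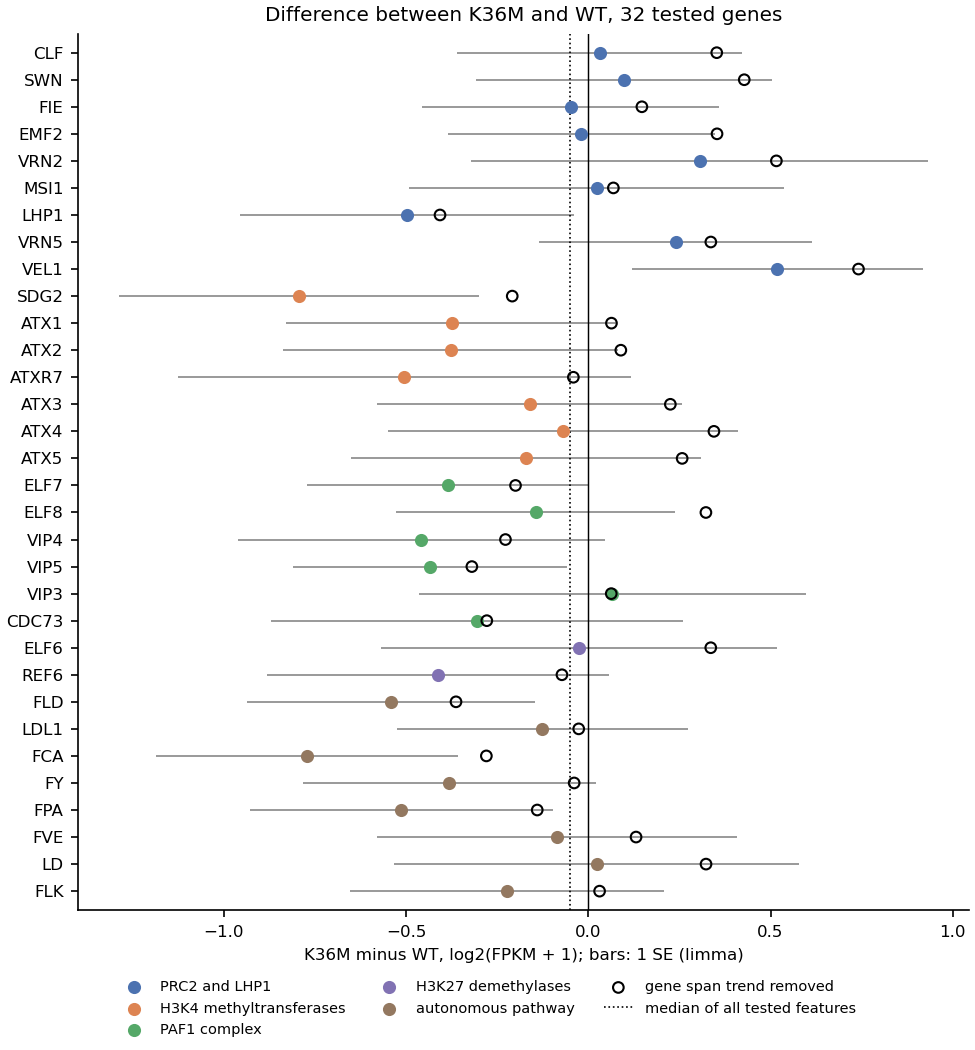
Difference between K36M and WT on the log2(FPKM + 1) scale for the 32 tested genes (filled points, bars of 1 SE from limma, 2 libraries per group) and the same after each library's gene span trend was removed (open circles). The dotted line is the median of all tested features, -0.05; removing the trend takes the median of the H3K4 methyltransferases from -0.38 to 0.09 and leaves FLD at -0.36.

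Gene span, the length from start to end of the annotated gene, was tied to the libraries that stood apart, and most of the listed genes are long. The tested genes had a median span of 5156 bp, against 2366 bp for 17473 tested features with a span. In WT replicate 1 the deviation of a feature from the mean of the other libraries, on the log2 scale, had a median of -0.44 for features under 2000 bp and of 0.83 for those of 6000 bp or more. K36M replicate 2 leaned the opposite way, with 0.32 and -0.42. The 34 genes shared this: across them, log2 span and deviation correlated at 0.45 in WT replicate 1 and at -0.53 in K36M replicate 2, against 0.32 and -0.30 across all features, given as a description over genes that share libraries.

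The counts of separated genes followed the same gradient. Of all tested features of 6000 bp or more, 38.8% had both K36M values below both WT values, against 11.7% of those under 2000 bp. Among the listed genes of 6000 bp or more the count was 4 of 11 (SDG2, ATX1, FCA and FPA), with a median difference of -0.38, where all 720 features of that range had -0.48. The long genes of the list thus did not read lower in K36M than other features of their span.

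**Figure D3:**
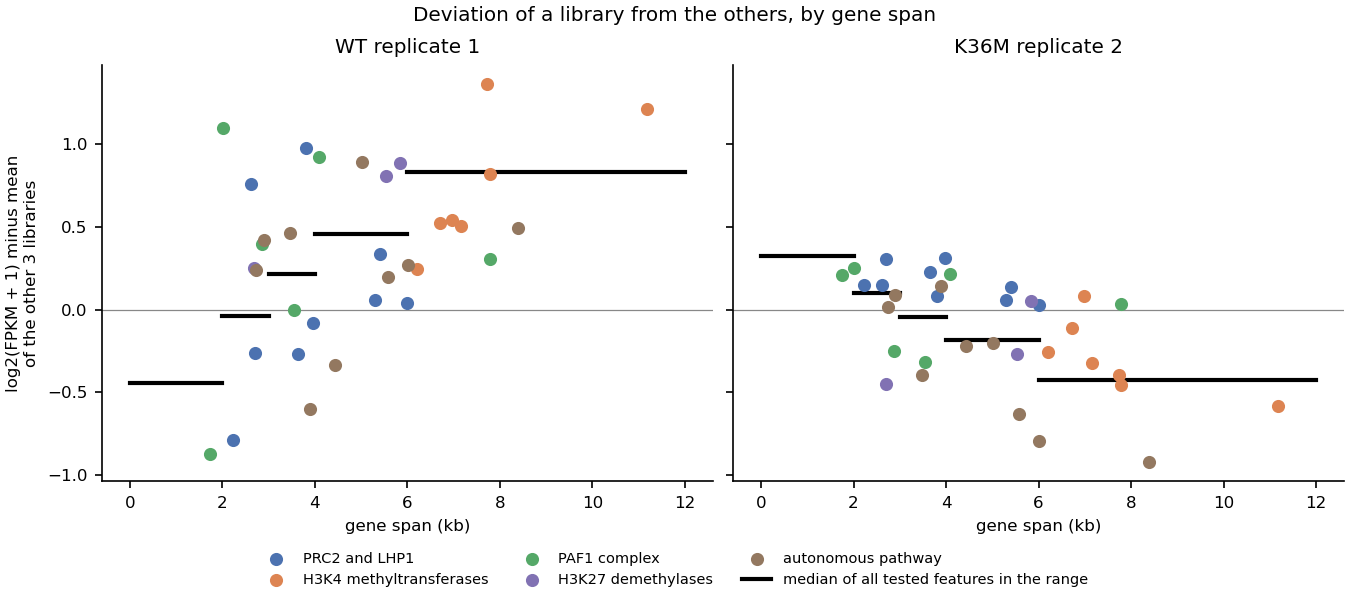
Deviation of WT replicate 1 (left) and K36M replicate 2 (right) from the mean of the other 3 libraries, in log2(FPKM + 1), against gene span in kb; points are the 34 genes and black lines the medians of all tested features in 5 ranges of span. Short features sit low and long features high in WT replicate 1, and the reverse in K36M replicate 2, and the H3K4 methyltransferases lie at the long end of both.

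With the span trend removed from each library by a loess curve, 3 of the 32 tested genes still had both K36M values below both WT values: SDG2, VIP5 and FLD, at -0.21, -0.32 and -0.36. Over all features that share was then 15.7%. Genes with both K36M values above both WT values numbered 6 (CLF, SWN, VRN5, VEL1, ATX2 and ATX4) against 15.8% of features. VEL1 stood at 0.74 with an unadjusted p of 0.079, and CLF and SWN at 0.35 and 0.43. The median of the Polycomb genes was then 0.35, that of the H3K4 methyltransferases 0.09, that of the PAF1 subunits -0.21 and that of the autonomous pathway -0.03. No gene of the list passed the test in this fit either. VRN5, VEL1, SDG2, VIP5 and FLD were on the same side of WT in both readings, whereas FCA, FY, FPA, ELF7, ATX1 and REF6 overlapped WT once the trend was removed.

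Differences were also taken within each replicate number. The labels do not say that a number marks a batch, so these are descriptions. Between the replicate 1 libraries the median over the list was -0.39, against -0.09 for all tested features, and between the replicate 2 libraries it was 0.01, against -0.03. The H3K4 methyltransferases had medians of -0.63 and -0.11, and the autonomous pathway had -0.22 and -0.57. VEL1 was at 0.35 and 0.69, FLD at -0.59 and -0.49, and VIP5 at -0.54 and -0.33, while CDC73, ELF6 and VRN2 had opposite signs there.

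**Figure D4:**
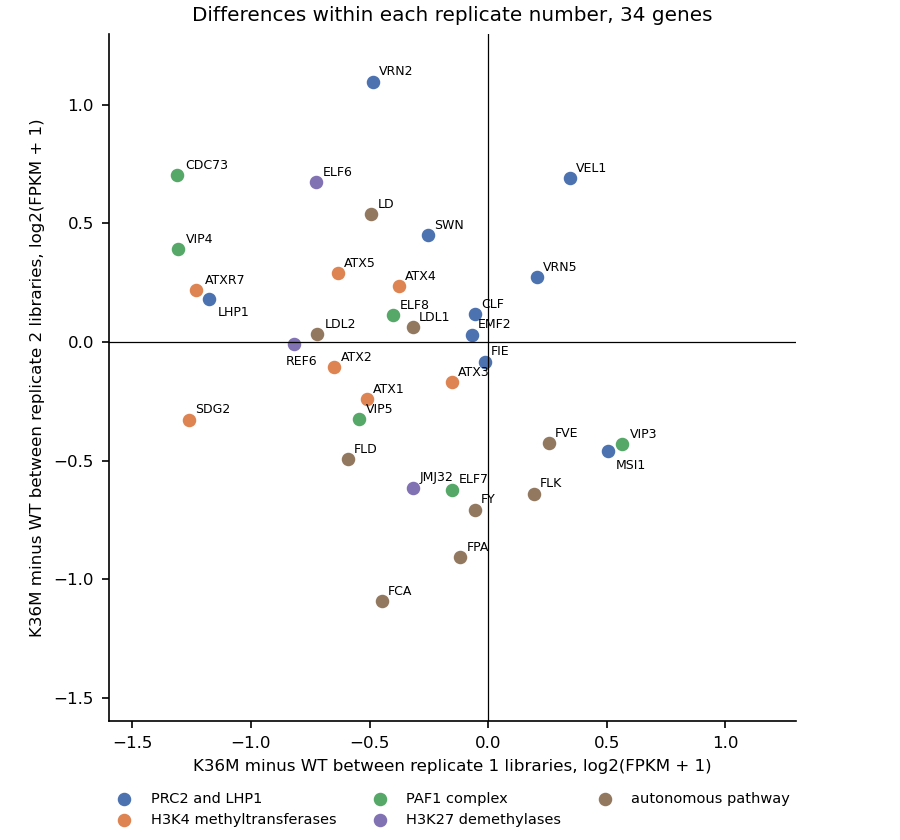
K36M minus WT in log2(FPKM + 1) between the replicate 1 libraries (horizontal) and between the replicate 2 libraries (vertical) for the 34 genes. VEL1 and VRN5 lie above 0 on both axes, FLD, VIP5, SDG2 and FCA below 0 on both, and VRN2, CDC73, ELF6, MSI1 and VIP3 on opposite sides.

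Shares of related genes within a library do not depend on its total. CLF made up 26.99% and 34.9% of the summed FPKM of CLF and SWN in WT and 30.04% and 29.3% in K36M, so SWN was the more abundant transcript in every library and the K36M shares lay between the WT shares. EMF2 took 38.4% and 72.2% of the sum with VRN2 in WT and 46.1% and 50.9% in K36M, the widest spread between WT libraries. MSI1, which shared the profile of FVE over the libraries, took 42.7% to 47.3% of their sum in all 4. VEL1 took 69.1% to 78.7% of the sum with VRN5, and ATX2 71.3% to 78.1% of the sum with ATX1, with overlapping groups in both pairs.

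In 2 families the shares did not overlap between genotypes. LDL1 made up 40.6% and 40.0% of the summed FPKM of FLD, LDL1 and LDL2 in WT and 50.7% and 50.5% in K36M, means of 40.3 ± 0.469 and 50.6 ± 0.132 percent (SD, n = 2). FLD averaged 48.3 ± 2.36 percent in WT (SD, n = 2) and stood at 44.9% and 36.8% in K36M, so FLD led the family in WT and LDL1 led it in K36M. ELF6 made up 57.2% and 44.9% of its sum with REF6 in WT and 61.2% and 63.1% in K36M. With 2 libraries per group an exact two-sided permutation test cannot go below a p of 0.333, and no test was made of these shares. Random labels alone would set a given share apart with that probability, so some families could be apart without any difference. The members of a family also differ in gene span.

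**Figure D5:**
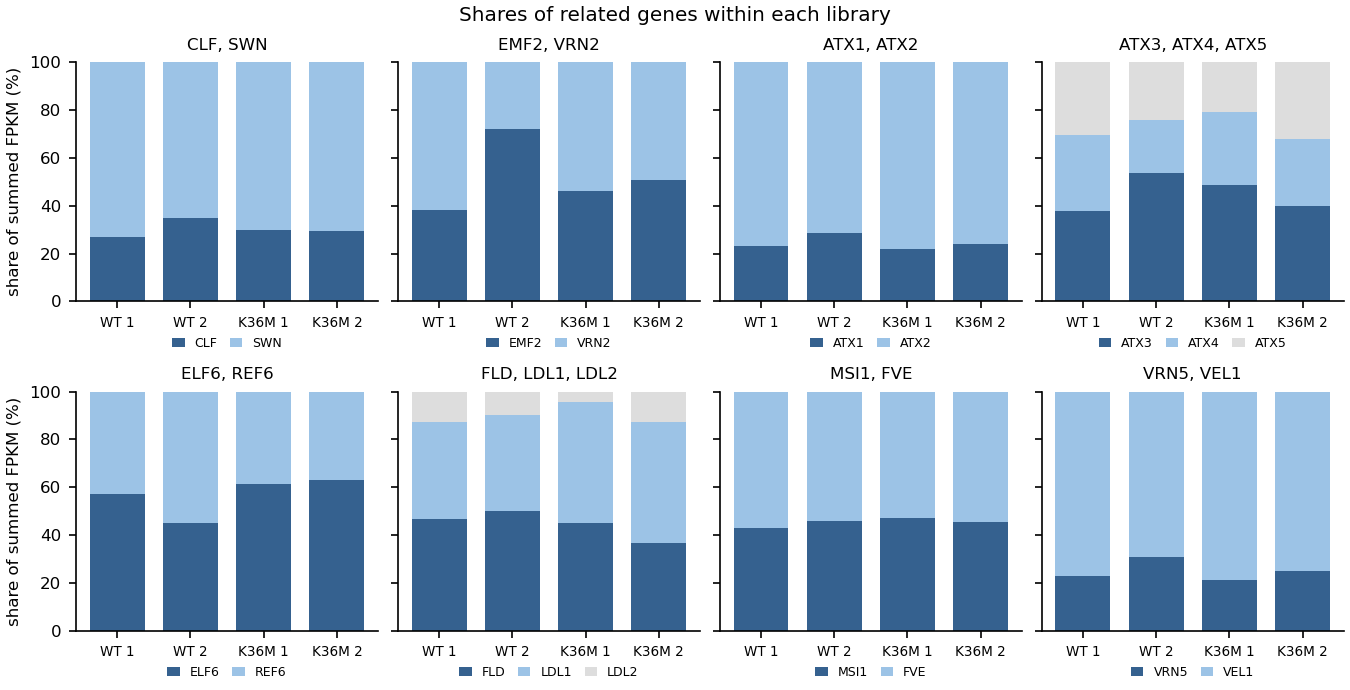
Share (%) of each gene in the summed FPKM of its family, for 8 families in the 2 WT and 2 K36M libraries; bars start at 0 and add to 100. The shares of FLD, LDL1, ELF6 and REF6 do not overlap between the genotypes, which random labels could also give in some families. The EMF2 and VRN2 pair differs most between the WT libraries.

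Other genes of these pathways gave no call by limma either. Of 16 Polycomb partners 10 were tested and none was called or had an unadjusted p under 0.05, with a median of -0.07 and 6 below 0. The greatest differences were those of the ubiquitin proteases UBP12 (29.8 and 11.3 FPKM in WT, 10.97 and 12.5 in K36M, -0.61) and UBP13 (-0.56) and of the PRC1 RING finger gene BMI1A (-0.33), all high in WT replicate 1. Of 11 COMPASS core subunits and demethylases 10 were tested and none was called or had an unadjusted p under 0.05, with a median of -0.26, led by JMJ30 (6.44 and 1.18 FPKM in WT, 1.32 and 1.298 in K36M, -0.80 ± 0.65), PKDM7D (-0.45) and AT1G63490 (-0.44).

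Partners of the PAF1 complex in elongation and H2B ubiquitination, 12 genes, had a median of -0.25 with none called and 0 at an unadjusted p under 0.05. SPT16, a subunit of the FACT histone chaperone, read 12.2 and 10.4 FPKM in WT and 6.18 and 6.05 in K36M, a difference of -0.78 ± 0.37 with an unadjusted p of 0.080 and groups apart. SSRP1, the other FACT subunit, read 13.3 and 12.8 FPKM in WT and 14.5 and 15.4 in K36M. It falls outside the naming rule and was chosen after its values were seen, because the subunits of FACT thus lay on opposite sides of WT. GTB1, an SPT6-like gene, was at -0.62 and the elongation factor SPT5-2 at -0.57.

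Among 18 activators of FLC and RNA processing partners of the autonomous pathway, 15 had a difference below 0, against 54.4% of all tested features, and 8 had both K36M values below both WT values, against 19.3%. The median was -0.38, or -0.17 with the span trend removed, with none called by limma and 2 at an unadjusted p under 0.05. CPSF30, a subunit of the cleavage and polyadenylation machinery to which FY also belongs, read 5.90 and 5.41 FPKM in WT and 2.15 and 1.79 in K36M, a difference of -1.17 ± 0.38 with an unadjusted p of 0.023. GRP7, an RNA-binding protein under clock control that also promotes flowering, read 256 and 156 FPKM in WT and 39.8 and 102 in K36M, a difference of -1.63 ± 0.64 with an unadjusted p of 0.042. HUA2 was at -0.70, with K36M replicate 2 the low library as in FCA. The adjusted p of each was 1.00 by limma. FRI, which activates FLC in winter annuals and is disabled in Columbia, read 2.81 and 2.097 FPKM in WT and 2.76 and 1.66 in K36M.

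FLC, the common target of these genes, fell just short of the mean of 1 FPKM needed for the test. It read 0.0894 and 2.60 FPKM in WT and 0.305 and 1.01 in K36M. With no filter on low values its difference was -0.29 ± 0.63, with an unadjusted p of 0.66 by limma. The K36M values lay between the WT values, and within each group the replicate 2 library was the higher one. SDG8, the main H3K36 methyltransferase, read 6.18 and 2.25 FPKM in WT and 2.45 and 1.94 in K36M, a difference of -0.60 ± 0.51. Its profile was that of the long H3K4 methyltransferases, with WT replicate 1 high and the other 3 libraries close together.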

How the data were processed

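The authors deposited 1 table of FPKM per gene, condition and replicate, with the unit and the condition names taken from the labels. Per the labels' protocols a stranded mRNA kit was used; the submitters' processing notes list Bowtie2, bedtools and TAIR10 but no roles. The sources used here give neither the program behind the FPKM nor its use of strand nor the depth. Of 33302 features, 233 join several genes; none of the 34 listed genes is among them. Names and gene spans came from RefSeq TAIR10.1 (32361 of 33069 single features and all 34 genes found), and no coordinates are printed because the builds differ.

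Values were analysed as log2(FPKM + 1), which understates changes of low genes, keeping 17738 features whose mean FPKM reached 1. The 2 K36M and 2 WT libraries were compared by limma 3.58.1 under R 4.3.3 (lmFit, then eBayes with a trend, two-sided, Benjamini-Hochberg over all tested features, threshold 0.05). FPKM are not counts, so no count model was run. The limma fit was also run on simulated data. The planted changes there were larger than any difference among the listed genes, and lay in features of higher expression than most of them. It therefore does not measure what could be detected in the listed genes. The listed genes, the other lists and the rules were chosen with earlier results of these data known. Any listed gene could be named. From each other list the 3 greatest differences were named, and FLC, FRI, SDG8, HTR5 and AT2G01021 whatever their values. Alternatives were pseudocounts of 0.1 and 0.5, no filter, median scaling, quantile normalization, robust limma or limma without a trend, a block for the replicate number, leaving out each library, and removal of each library's span trend (loess, span 0.3) with and without the block. Python 3.11.15, pandas 2.3.3 and matplotlib 3.10.9 served for tables and figures.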

Additional observations from a re-analysis of the deposited data

How the results depend on the processing

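No listed gene was called under any of the 14 alternatives. Of 448 values of single genes, 58 changed sign, 45 of them by less than 1 SE, and 12 of the 32 genes kept their sign throughout. Median scaling moved the median of all features from -0.05 to 0.06. The calls over all features, 5 higher and 2 lower, were 0 and 0 without a filter and with the replicate block, 4 and 0 with the span trend removed, and 19 and 39 with the span trend removed and the replicate block. Leaving out 1 library gave 0 to 192 higher and 0 to 510 lower; the highest counts came without WT replicate 2, which leaves WT replicate 1 as the lone WT library, assumed to vary like the other group. There, 3 listed genes had an unadjusted p under 0.05, and 1 did without WT replicate 1. The replicate numbers shared little (r = 0.13 between the deviations of the replicate 1 libraries), and the labels do not say that they pair the libraries; the replicate block changed no call of a listed gene.

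The median of the Polycomb genes moved from 0.03 to 0.35 with the span trend removed, with or without the replicate block, that of the H3K4 methyltransferases from -0.38 to 0.089 and that of the autonomous pathway from -0.30 to -0.033. Leaving out 1 library gave medians of -0.57 to 0.046 for the H3K4 methyltransferases and of -0.41 to -0.057 for the PAF1 complex. Tested genes below both WT libraries numbered 9 with all libraries, 4 under median scaling, 3 with the span trend removed, with or without the block, and 11 to 25 with 1 library left out, where fewer values have to be passed. Those above numbered 2, then 4, 6 and 2 to 10. In the same order, the shares of all features below were 19.3%, 14.5%, 15.7% and 26.8% to 44.8%. The shares above were 12.1%, 16.7%, 15.8% and 17.9% to 39.4%. With the span trend removed, with or without the block, EMF2 moved from -0.02 to 0.35, ATX2 from -0.38 to 0.089 and ELF8 from -0.14 to 0.32. Leaving out 1 library, the ranges were -0.58 to 1.19 for VRN2, -0.56 to 0.60 for MSI1, -1.27 to 0.26 for ATXR7, -0.56 to 0.69 for VIP3, -0.97 to 0.36 for CDC73, -0.68 to 0.62 for ELF6 and -0.66 to 0.70 for LD. The cause of these shifts was not tested. Depth is unknown, so precision is limited to the spread of 2 libraries per group.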
